A study of Mus musculus with 22 samples.

Results

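The SREBP regulators are 8 genes of the switch that matches a cell's sterol supply to its demand: Srebf1, Srebf2, Scap, Insig1, Insig2, Mbtps1, Mbtps2 and Mylip. They were chosen by name, and each symbol matched 1 Ensembl gene among the 55487 genes of the deposited count tables. All 8 passed the filter on low counts in every comparison. RNA sequencing measured polyadenylated transcripts from the spleens of wild-type male C57BL/6 mice in 22 libraries of 4 groups, in order to compare foamy with non-foamy cells. Monocytes were given vehicle (6 libraries, replicates 1 to 6) or oxidised low-density lipoprotein (ox-LDL) at 50 µg/mL for 24 hours (5 libraries, replicates 7 to 11). Macrophages had been made from such monocytes with the phorbol ester PMA at 200 ng/mL for 5 days and were given vehicle (5 libraries, A to E) or the same ox-LDL dose (6 libraries, G to L). The macrophage groups thus share PMA, which the monocyte groups did not receive, so cell type, PMA and time in culture cannot be told apart. The labels name no sort or gate, and do not say which libraries came from separate mice or cultures, so the p-values cover only library-to-library spread, which may be technical.

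SREBP transcription factors are made as membrane proteins of the endoplasmic reticulum (ER), where they are bound to the sterol sensor Scap. When ER sterol is low, Scap carries them to the Golgi, where the site-1 and site-2 proteases free the part that enters the nucleus and switches on genes of sterol synthesis and lipoprotein uptake. When sterol is high, Insig proteins hold Scap in the ER, and the sterol-activated receptor LXR induces Mylip, a ubiquitin ligase that sends lipoprotein receptors to degradation. Transcript counts do not show cleavage or the amount of nuclear SREBP.

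The genes lie on 8 chromosomes of GRCm38. Srebf1 (ENSMUSG00000020538; chromosome 11, 60199089 to 60222581) and Srebf2 (ENSMUSG00000022463; chromosome 15, 82147181 to 82205379) encode the transcription factors, and the counts per gene do not separate the isoforms of Srebf1. Scap (ENSMUSG00000032485; chromosome 9, 110333288 to 110384950) encodes the escort protein. Insig1 (ENSMUSG00000045294; chromosome 5, 28071363 to 28078662) and Insig2 (ENSMUSG00000003721; chromosome 1, 121304353 to 121332589) encode the ER anchors. Mbtps1 (ENSMUSG00000031835; chromosome 8, 119508156 to 119558735) encodes the site-1 protease and Mbtps2 (ENSMUSG00000046873; chromosome X, 157535371 to 157598715) the site-2 protease. Mylip (ENSMUSG00000038175) spans 45389742 to 45412022 of chromosome 13. Exons of Mbtps2 share 2867 bases with Yy2 on the same strand, and exons of Scap share 985 bases with an antisense gene, 5830462I19Rik. Srebf1 shares 109 exonic bases with the antisense gene Rai1 and 66 with a microRNA gene, and reads from these stretches could not be assigned from the tables.

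The sequences before the start sites of Insig1, Srebf2 and Insig2 are shown because transcripts of the first pair fell with ox-LDL in macrophages while that of Insig2 was not called. They are the RefSeq promoter windows (GRCm38.p6) cut at the first exon of the deposited tables, written on the gene's strand, and the capitals mark the motif matches described below them. The Insig2 window is that of its most upstream start, on the minus strand, and the other windows printed are on the plus strand. Insig2 windows of later starts (121328025 to 121328274 and 121327679 to 121327928) held no match of the motifs below and are not printed. Counts per gene do not show which start was used.
Insig1, chr5:28071162-28071362: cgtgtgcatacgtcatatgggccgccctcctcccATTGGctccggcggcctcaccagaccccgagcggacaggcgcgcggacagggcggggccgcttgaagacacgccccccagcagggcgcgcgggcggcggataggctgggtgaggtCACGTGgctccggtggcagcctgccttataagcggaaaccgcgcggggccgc
Srebf2, chr15:82147019-82147180: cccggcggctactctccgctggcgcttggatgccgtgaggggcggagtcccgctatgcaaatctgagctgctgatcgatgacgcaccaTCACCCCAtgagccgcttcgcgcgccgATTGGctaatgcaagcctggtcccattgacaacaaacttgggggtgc
Insig2, chr1:121332590-121332839: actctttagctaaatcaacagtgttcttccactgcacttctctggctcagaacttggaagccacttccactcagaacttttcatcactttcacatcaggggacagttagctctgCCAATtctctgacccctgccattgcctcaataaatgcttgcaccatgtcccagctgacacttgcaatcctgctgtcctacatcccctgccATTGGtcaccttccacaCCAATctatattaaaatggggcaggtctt

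Motifs were searched on both strands in the 250 bases before each start of 32851 RefSeq promoters, in which all 8 genes had an entry. The sterol regulatory element, searched as TCACNCCAC, was in the window of 0 of the 8 genes and in 1.05% of all windows. Its first 8 letters, TCACNCCA, were searched after the Srebf2 sequence had been read. They matched once, in Srebf2, and are in 3.67% of all windows. That match begins 162 bases before the RefSeq start, which lies inside the first exon of the deposited tables and so downstream of the printed end. The E-box CACGTG, a palindrome that SREBPs can bind, was in windows of Insig1 and Scap and in 6.02% of all. The CCAAT box, the site of the co-factor NF-Y, was in windows of 5 of the 8 genes (Srebf1, Srebf2, Insig1, Insig2 and Mylip), and in 33.8% of all windows. Counted per gene, since a gene can have several windows, the CCAAT box was in 37.5% of 27025 genes and in 14 of the 15 sterol enzyme genes with an entry. By the same count the sterol element was in 1 of the 15 (1.22% of genes), its shorter core in 2 (4.2%), the E-box in 3 (6.86%) and the LXR element in 0 (0.0148%). The LXR element, searched as AGGTCA repeated in the same direction after 4 bases, was in 0 of the 8 and in 0.0152% of all. These are matches of letters, and a window without one says nothing of the factor.

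Levels are given as CPM, counts per 1000000 counts of the library, scaled with TMM factors. A gene is said to be called, to rise or to fall where edgeR's quasi-likelihood F test, 2-sided, gave an adjusted p (Benjamini-Hochberg over all genes tested) under 0.05. The error given after a log2 value is its standard error. Library totals ran from 37.3 to 50.3 in units of 1000000 counts, and the lowest count of any of the 8 genes in any library was 111, for Mbtps2 in a vehicle monocyte library. Cell identity was checked with marker lists. The macrophage marker Adgre1 stood at 1238 and 1039 CPM in vehicle and ox-LDL macrophages against 261 and 271 in monocytes, and the 14 macrophage markers summed to between 35632 and 50065 CPM in macrophages. In monocytes they summed to between 9624 and 12905 CPM with vehicle and between 13172 and 18071 with ox-LDL, without overlap. The 12 monocyte markers summed to less in monocytes, between 4738 and 19960 CPM, than in macrophages, between 22492 and 40598. Lyz2 (23940 CPM in vehicle macrophages, 6820 in vehicle monocytes) and Csf1r (4487 and 808.0) were higher in macrophages, and Ly6c2 (1.28 and 108) was lower. The monocyte libraries also held markers of other cells. Their summed neutrophil list (13 markers, 12 at or above 1 CPM with vehicle) ran from 5724 to 46106 CPM with vehicle and from 4954 to 43596 with ox-LDL, against 131 to 335 in macrophages. Replicates 5, 6, 10 and 11 made up the upper range, from 30356 CPM. Dendritic cell markers summed to between 7343 and 12980 CPM in monocytes and erythroid markers to between 440.3 and 14410, against at most 249 and 2.80 in macrophages. Of the 11 dendritic cell markers 8 reached 1 CPM in monocytes, with Ccr7 (7179 CPM with vehicle) and Fscn1 (2547) the highest. Xcr1, Clec9a and Siglech stayed under 1 CPM, and Itgax was higher in vehicle macrophages (155 CPM) than in vehicle monocytes (55.2). In such mixed samples fewer cells of a type and less RNA per cell cannot be told apart, and the part of these other cells in the values below was not tested except where the 4 libraries were left out.

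In macrophages ox-LDL lowered the transcripts of Insig1 and Srebf2 and raised that of Mylip. Insig1, the anchor whose own gene is a known SREBP target, stood in the vehicle libraries at 67.0, 69.3, 64.2, 63.6 and 69.5 CPM. In the 6 ox-LDL libraries its lowest value was 22.9, its median 25.7 and its highest 26.9. Every ox-LDL library lay below every vehicle library, with a gap wider than the range of either group. The means were 66.7 ± 2.74 (SD, n = 5) and 25.4 ± 1.59 CPM (n = 6), a log2 fold change of -1.39 ± 0.06 (edgeR adjusted p = 2.48e-08), and over 16 alternative fits the change ran from -1.44 to -1.36.

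Srebf2, the factor that chiefly drives sterol synthesis genes, was at 104, 138, 134, 160.2 and 149 CPM in vehicle macrophages. With ox-LDL its lowest value was 80.5, its median 84.3 and its highest 94.5 CPM. The groups did not overlap, though vehicle replicate A came within about 10 CPM of the highest ox-LDL library. The log2 fold change was -0.69 ± 0.09 (means 137 ± 20.9 and 85.2 ± 5.12 CPM; edgeR adjusted p = 0.00161).

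Mylip was at 103, 103, 95.0, 90.7 and 103 CPM in vehicle macrophages, and with ox-LDL at a lowest of 114, a median of 156 and a highest of 168. The ox-LDL libraries were all higher and spread more widely than the vehicle libraries. Replicates C and D were the lowest with vehicle, and I and J (124 and 114 CPM) the lowest with ox-LDL. The same libraries had the highest summed dendritic cell markers and the lowest summed neutrophil markers of their groups. The part of that in the Mylip values was not tested. The log2 fold change was 0.57 ± 0.10 (means 99.1 ± 5.91 and 148 ± 23.3 CPM; edgeR adjusted p = 0.00956). In 1 fit over all 4 groups the change was 0.57 ± 0.16 and was not called (adjusted p = 0.151).

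The other 5 members were not called in macrophages. Srebf1, which drives fatty acid synthesis genes and is itself an LXR target in many tissues, had vehicle values of 97.8, 94.0, 98.9, 111 and 118 CPM and a median of 116 with ox-LDL (0.13 ± 0.08 on the log2 scale, adjusted p = 0.47). Insig2, the anchor that is not a known SREBP target, ranged from 35.1 to 41.5 CPM with vehicle and from 33.5 to 43.8 with ox-LDL (-0.03 ± 0.08, adjusted p = 0.928). The groups of both genes overlapped. Scap stood at -0.02 ± 0.10 on the log2 scale, Mbtps1 at 0.07 ± 0.06 and Mbtps2 at 0.16 ± 0.10, with adjusted p from 0.526 to 0.956. Thus 2 of the 8 fell, against 1.38% of the 14543 genes tested, and 1 rose, against 0.976%. The same 3 had groups that did not overlap, 2 lower (1.79% of genes tested) and 1 higher (1.6%). The median log2 change of the 8 was 0.025, and that of all genes 0.00.

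**Figure D1:**
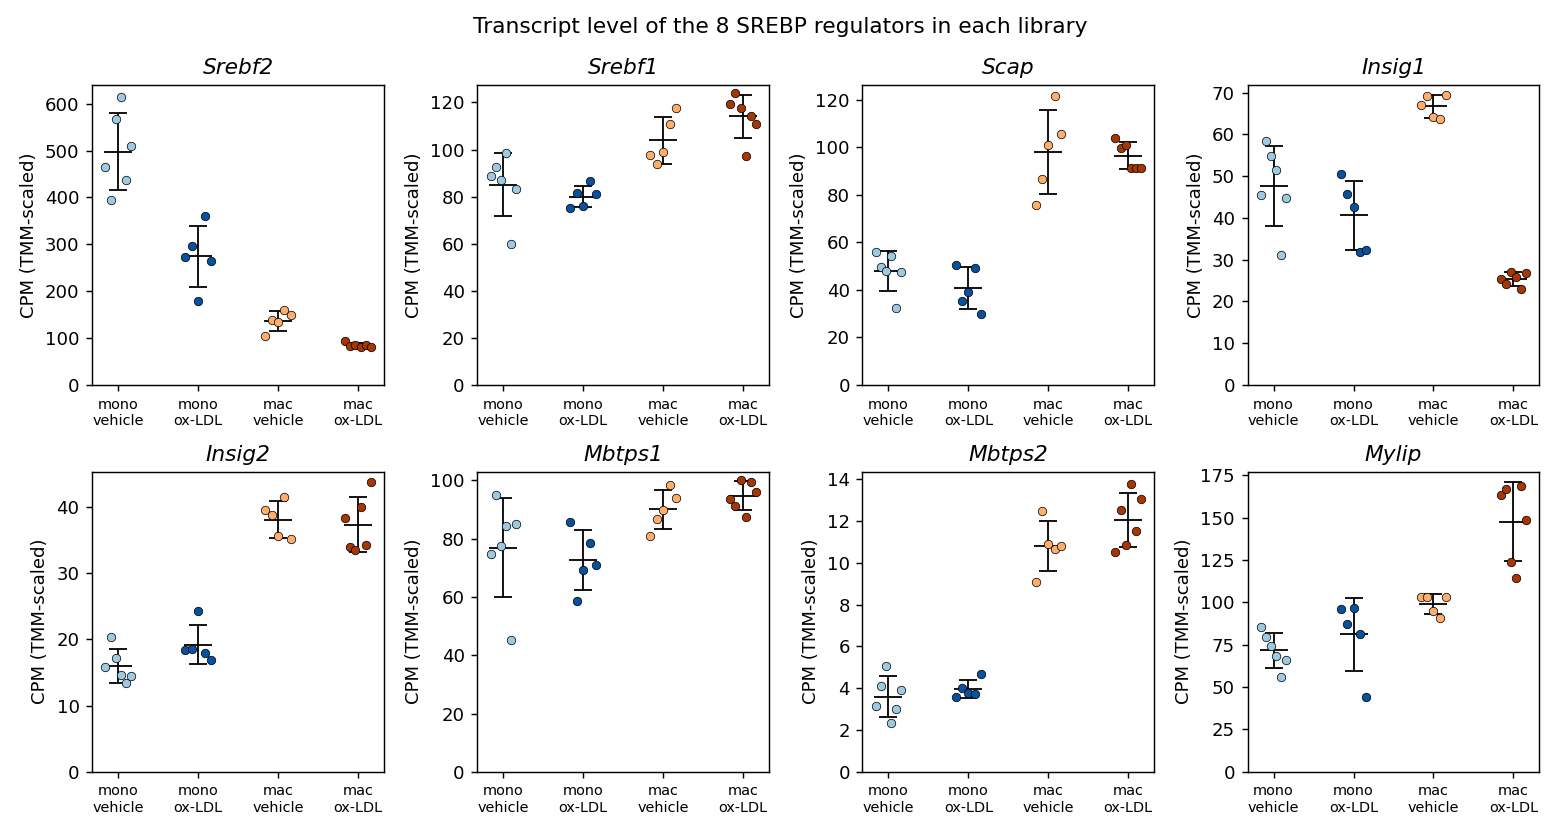
Level of each of the 8 genes in CPM (TMM-scaled, linear axes from 0) in every library of the 4 groups; points are libraries, and the bars give the mean and SD (n = 6, 5, 5 and 6 from left to right; mono, monocytes; mac, macrophages). Insig1 is near 25.4 CPM in ox-LDL macrophages and higher in every library of the other groups, while Srebf2 descends from group to group without overlap.

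In monocytes 0 of the 8 members were called by edgeR, against 0.0241% of the 16575 genes tested. At an unadjusted p under 0.05 there were 2 of the 8, Srebf2 and Insig2, against 10.4% of genes. DESeq2 called 1, Srebf2, limma voom called 0, and 1 fit over all 4 groups called Srebf2. The median log2 change of the 8 was -0.055, and that of all genes -0.002.

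Srebf2 had the lowest fold change of the 8 in monocytes. Its vehicle libraries ran from 393 CPM through a median of 487 to 613, and the ox-LDL libraries stood at 273, 296, 180.2, 361 and 264. Every ox-LDL library was below every vehicle library, which held for 0.748% of all genes tested in that direction and for 1 of the 8. The summed macrophage markers given above were higher in every ox-LDL than in every vehicle monocyte library, and their part in the Srebf2 values was not tested. The log2 fold change was -0.83 ± 0.18 (means 497 ± 82.3, n = 6, and 275 ± 65.2 CPM, n = 5; edgeR adjusted p = 0.164). It was called with DESeq2 (-0.84 ± 0.20, adjusted p = 0.0075) and in the fit over all 4 groups (-0.85 ± 0.14, 0.00434), and the lowest and highest adjusted p of 17 alternatives were 0.00434 and 0.435. Without the 4 libraries high in neutrophil markers it was -1.01 ± 0.21 (edgeR adjusted p = 0.085). Within those 4, vehicle values were 437 to 510 CPM and ox-LDL values 264 to 361, and within the other 7 they were 393 to 613 and 180.2 to 296.

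Insig1 overlapped between the monocyte groups. With vehicle it ran from 31.2 through a median of 48.5 to 58.4 CPM, and with ox-LDL it stood at 50.5, 45.7, 42.7, 31.9 and 32.4. The libraries high in neutrophil markers were the lowest of each group, at 31.2 and 44.8 CPM with vehicle and 31.9 and 32.4 with ox-LDL. The log2 fold change was -0.20 ± 0.16 (edgeR adjusted p = 0.723), or -0.17 ± 0.13 without those libraries (0.563).

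The other members overlapped between the monocyte groups as well. Insig2 ran from 13.4 to 20.3 CPM with vehicle and stood at 18.3, 18.5, 24.3, 17.9 and 16.9 with ox-LDL (0.29 ± 0.13 on the log2 scale, adjusted p = 0.468). Mylip ran from 56.2 to 85.4 CPM with vehicle and stood at 96.3, 87.2, 96.6, 81.1 and 44.1 with ox-LDL (0.20 ± 0.18, adjusted p = 0.755). In that gene the ox-LDL library with the lowest value, replicate 11, was also the lowest of all monocyte libraries, and it is among those high in neutrophil markers. Srebf1 (-0.06 ± 0.12), Scap (-0.21 ± 0.16), Mbtps1 (-0.05 ± 0.16) and Mbtps2 (0.16 ± 0.20) had adjusted p from 0.725 to 0.949.

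Whether the response to ox-LDL differed between monocytes and macrophages was tested in 1 fit over all 22 libraries, which shares its samples with the comparisons above. Insig1 was the called member: its log2 change was lower in macrophages than in monocytes by a difference of -1.16 ± 0.19 (edgeR adjusted p = 0.019). So 1 of the 8 was called lower, against 0.0573% of 17466 genes. The call was lost without monocyte ox-LDL replicate 8 (adjusted p = 0.061) or 9 (0.0632) or macrophage vehicle replicate A (0.0539), with differences of -1.12, -1.14 and -1.16. Without the 4 libraries high in neutrophil markers the difference was -1.21 ± 0.12 (adjusted p = 6.67e-05).

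For Srebf2 that difference was 0.17 ± 0.20 (adjusted p = 0.93), and the changes in monocytes and macrophages were -0.83 ± 0.18 and -0.69 ± 0.09. A test that misses the threshold does not show that the changes were equal. Mylip differed by 0.39 ± 0.22 (0.76), Insig2 by -0.30 ± 0.16 (0.75) and Srebf1 by 0.22 ± 0.15 (0.814). Scap, Mbtps1 and Mbtps2 differed by 0.21 ± 0.21, 0.16 ± 0.19 and 0.03 ± 0.22, with adjusted p of at least 0.899.

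**Figure D2:**
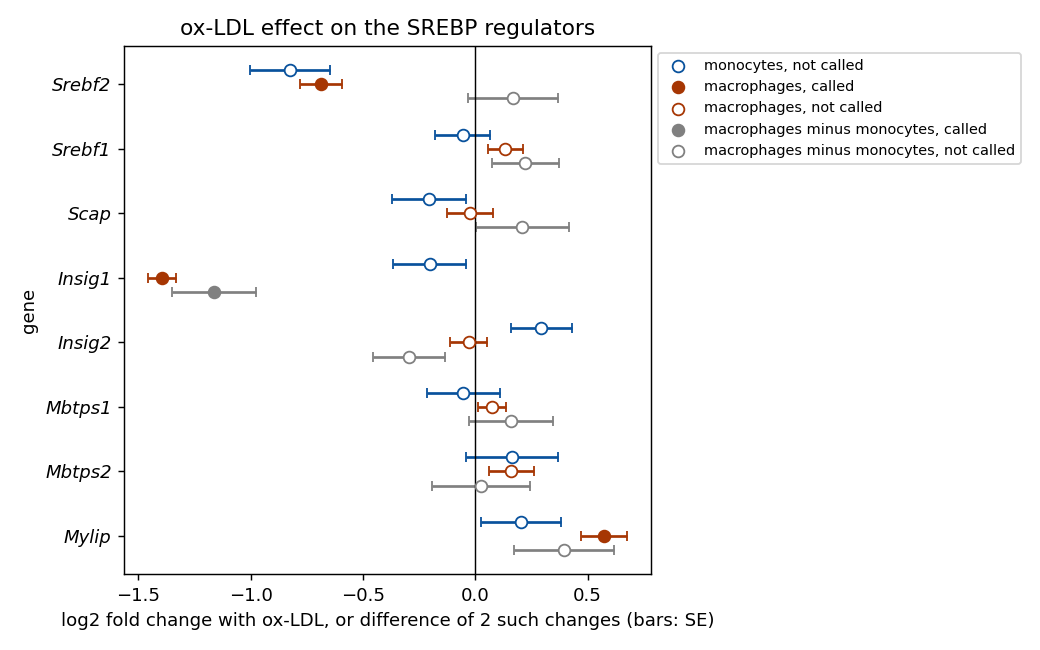
Log2 fold change with ox-LDL against vehicle for each gene (vertical axis) in monocytes (blue) and macrophages (brown), and the macrophage change minus the monocyte change (grey); bars are standard errors and filled points are called (edgeR adjusted p under 0.05). Srebf2 lies at -0.83 and -0.69 in the 2 cell types, and Insig1 at -0.20 and -1.39.

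Between cell types the members parted in direction. With vehicle, 5 of 8 were higher in macrophages than in monocytes (28.5% of 16288 genes tested were called higher) and 1 was lower (35.1% were called lower). With ox-LDL, 6 were higher (30.3% of 15825) and 2 lower (35.0%). The shares called are large in these comparisons, and the neutrophil, dendritic cell, erythroid and macrophage markers given above differ between the same libraries.

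Srebf2 was the member lower in macrophages with either treatment. Its log2 difference, macrophages minus monocytes, was -1.88 ± 0.15 with vehicle (edgeR adjusted p = 9.93e-08) and -1.72 ± 0.14 with ox-LDL (2.56e-07). In CPM its 4 groups did not overlap in the order vehicle monocytes, ox-LDL monocytes, vehicle macrophages, ox-LDL macrophages. Between cell types, groups without overlap and with macrophages lower were found for 26.2% of all genes tested with vehicle and 25.4% with ox-LDL.

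Srebf1 differed in the other direction. It was 0.27 ± 0.12 higher in macrophages with vehicle (log2; adjusted p = 0.0754, not called) and 0.48 ± 0.09 higher with ox-LDL (2.45e-04, called). The vehicle difference was called in 5 of 17 alternatives, and adjusted p over the 17 ran from 0.0193 to 0.273. The fit over all 4 groups was among the 5. Without monocyte replicate 5, macrophage replicate A or macrophage replicate C it was called as well. It was then 0.24, 0.35 and 0.34, with edgeR adjusted p of 0.0313, 0.0302 and 0.0354. Its ox-LDL monocyte libraries stood at 75.3 to 86.4 CPM and its ox-LDL macrophage libraries at 97.5 to 124.

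Scap, the escort, was 1.01 ± 0.15 higher in macrophages with vehicle and 1.21 ± 0.14 with ox-LDL on the log2 scale (adjusted p = 5.15e-05 and 3.76e-06). Its vehicle macrophage libraries were at 75.5, 86.5, 101, 122 and 106 CPM, and the monocyte libraries of both treatments lay between 29.7 and 55.8. No macrophage library reached down to the monocyte range. Groups that did not overlap, with macrophages higher, were found for 22.8% of all genes tested with vehicle and 23.9% with ox-LDL.

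The Insig genes behaved unlike each other. Insig2 was higher in macrophages with vehicle (1.23 ± 0.12 on the log2 scale, adjusted p = 6.54e-07) and with ox-LDL (0.92 ± 0.12, 1.24e-05). Insig1 was higher with vehicle (0.46 ± 0.14, 0.00918) and lower with ox-LDL (-0.71 ± 0.13, 2.33e-04). In CPM the order for Insig1 was vehicle macrophages, then the monocyte groups, which overlapped, then ox-LDL macrophages.

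Of the proteases, Mbtps2 was 1.56 ± 0.19 higher in macrophages with vehicle and 1.58 ± 0.12 with ox-LDL on the log2 scale (adjusted p = 6.46e-06 and 1.52e-07). It stood at 9.10, 12.5, 10.9, 10.6 and 10.8 CPM in vehicle macrophages and between 2.33 and 5.08 in vehicle monocytes. Mbtps1 was 0.21 ± 0.15 higher with vehicle (0.255, not called) and 0.35 ± 0.10 with ox-LDL (0.00742, called), and when libraries were scaled by their total counts the latter was 0.25 ± 0.11 (0.0533, not called). Mylip was 0.45 ± 0.11 higher in macrophages with vehicle (0.00305) and 0.83 ± 0.19 with ox-LDL (0.0016).

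Levels of different genes were compared in the deposited TPM, which divide counts by exonic length and set each library to the same sum. In vehicle monocytes Srebf2 led with 189.5 ± 40.2 TPM (SD, n = 6), apart from Mylip at 61.2 ± 14.5, and Mbtps2 was lowest at 0.98 ± 0.33. In ox-LDL macrophages Mylip led with 127 ± 18.3 TPM (n = 6), apart from Srebf1 at 56.3 ± 3.27. There Scap (36.1 ± 1.32), Srebf2 (33.0 ± 1.62), Insig2 (30.0 ± 3.94), Mbtps1 (25.1 ± 1.57) and Insig1 (22.9 ± 1.77) followed, each overlapping with the next. Insig1 moved from the second place among the 8 in vehicle macrophages (60.5 ± 4.54 TPM) to the seventh with ox-LDL. Mbtps2 was the lowest in all 4 groups, and its range was apart from that of the gene above it in each.

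Ratios of TPM within a library describe the same values in pairs, with no test. Insig1 over Insig2 was 3.35 ± 0.45 in vehicle monocytes (n = 6), 2.40 ± 0.50 in ox-LDL monocytes (n = 5), 1.98 ± 0.18 in vehicle macrophages (n = 5) and 0.77 ± 0.07 in ox-LDL macrophages (n = 6). In the last group it lay between 0.69 and 0.90, so Insig2 had the higher level in each of those libraries, and in every other group Insig1 did. Srebf1 over Srebf2 was 0.22 ± 0.04, 0.39 ± 0.09, 0.98 ± 0.13 and 1.71 ± 0.13 in the same order. Its range was 1.54 to 1.91 in ox-LDL macrophages and 0.87 to 1.20 in vehicle macrophages. Mbtps1 over Mbtps2 was 21.6 ± 7.39 and 17.9 ± 3.81 in monocytes and 8.07 ± 0.85 and 7.64 ± 1.09 in macrophages.

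**Figure D3:**
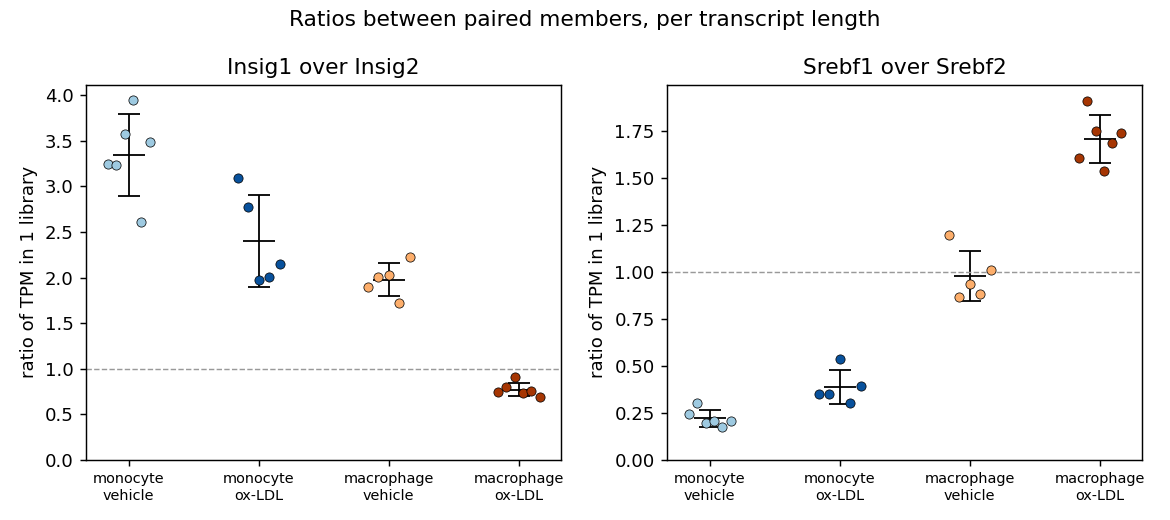
Ratio of deposited TPM of Insig1 to Insig2 (left) and of Srebf1 to Srebf2 (right) in each library, by group; points are libraries, bars the mean and SD (n = 6, 5, 5 and 6 from left to right), and the dashed line marks equal levels. The Insig ratio is below the line in the ox-LDL macrophage libraries alone (0.69 to 0.90), and the Srebf ratio is above it in all of them (1.54 to 1.91).

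The genes that the regulators act on or work with were taken from lists of the pathway. Among 20 sterol synthesis enzymes, 15 fell with ox-LDL in macrophages (1.38% of all genes tested did), 0 rose (0.976%) and 5 were not called by edgeR. Their median log2 change was -0.74, against 0.00 for all genes. Mvd, which makes isopentenyl diphosphate, fell by 0.95 on the log2 scale (SE 0.08, adjusted p = 4.1e-05). The lanosterol demethylase Cyp51 fell by 1.20 (SE 0.11, 7.68e-05) and Hmgcs1, which makes the precursor of mevalonate, by 0.69 (SE 0.08, 6.49e-04). In 1 fit over all 4 groups 11 of the 20 were called. In monocytes 0 of the 20 were called by edgeR, DESeq2 or limma voom, and 1 had an unadjusted p under 0.05 (10.4% of all genes tested did). The median there was -0.11 against -0.002. Sterol enzymes were thus called lower in macrophages beside the falls of Insig1 and Srebf2. In the test of the difference 4 of 20 were called lower, beside 0.0573% of all genes tested, and 0 higher. Among the 4 were Msmo1 (-1.19 ± 0.21), Idi1 (-1.45 ± 0.26) and Cyp51 (-1.08 ± 0.20), each with an edgeR adjusted p of 0.0354. The count of 4 rests on single libraries and on the scaling: over 27 alternatives it ran from 0 to 8. It was 0 with total counts and without any 1 of monocyte replicates 1, 6, 8 and 9 or macrophage replicates A, B, C, D, H and K. It was 1 without monocyte replicate 5 or macrophage replicate E, I or L, 2 without macrophage replicate G, and 6 without monocyte replicate 10 or 11. With DESeq2 it was 8, and likewise without the 4 libraries high in neutrophil markers.

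Other lists held few calls with ox-LDL. Among 14 fatty acid synthesis enzymes, which Srebf1 chiefly drives, 0 were called by edgeR in macrophages, where 4 had an unadjusted p under 0.05 (14.2% of all genes tested did), DESeq2 called 2 and limma voom 0. Acly, the most abundant, stood at -0.10 ± 0.06 (adjusted p = 0.51). In monocytes 0 were called by edgeR, with 5 at an unadjusted p under 0.05 (10.4% of all genes), 1 called by DESeq2, 0 by limma voom and 2 in the edgeR fit over all 4 groups. Of 12 LXR receptors and target genes, not counting the members, the cholesterol exporters Abcg1 (0.94 ± 0.08, adjusted p = 7.47e-05) and Abca1 (0.71 ± 0.15, 0.0281) rose in macrophages beside Mylip. These are 2 of the 12, where 0.976% of all genes tested were called higher. DESeq2 called 3 of the 12, limma voom 2 and the fit over all 4 groups 1, and 6 had an unadjusted p under 0.05 (14.2% of all genes). Abcg1 was called in all 16 alternatives. Abca1 was not called in the fit over all 4 groups (0.71 ± 0.28, adjusted p = 0.506) or without any 1 of replicates B, C, D, E, G, H, K and L (0.0537 to 0.076). In monocytes 0 of the 12 were called by edgeR, DESeq2 or limma voom, 2 had an unadjusted p under 0.05 (10.4% of all genes did), and the edgeR fit over all 4 groups called 1.

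The partners of the switch showed no calls with ox-LDL other than Lrp8. A list of 24 SREBP trafficking and turnover genes included genes for vesicle coats that carry Scap and for ER degradation of Insig. Of these 24, 0 were called by edgeR, DESeq2 or limma voom in either cell type. At an unadjusted p under 0.05 there were 4 in each, beside 14.2% of all genes in macrophages and 10.4% in monocytes. Vcp, the segregase of ER degradation, stood at 0.12 ± 0.06 in macrophages (edgeR adjusted p = 0.341). Of 7 other substrates of the site-1 and site-2 proteases, such as Atf6b (0.03 ± 0.07 in macrophages, 0.909), 0 were called by edgeR, DESeq2 or limma voom in either cell type. At an unadjusted p under 0.05 there was 1 in macrophages (14.2% of all genes) and 0 in monocytes (10.4%). Lrp8, a lipoprotein receptor that Mylip targets at the protein level, rose in macrophages from 15.8 ± 1.23 to 23.2 ± 4.49 CPM (0.55 ± 0.12, adjusted p = 0.0313), with overlapping groups. It was the 1 called of 6 partners of Mylip, where 0.976% of all genes tested were called higher. The call was lost in the fit over all 4 groups (adjusted p = 0.191) and without any 1 of replicates A, B, D, E, G, H, K and L (0.0522 to 0.094), which left 0 of the 6.

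**Figure D4:**
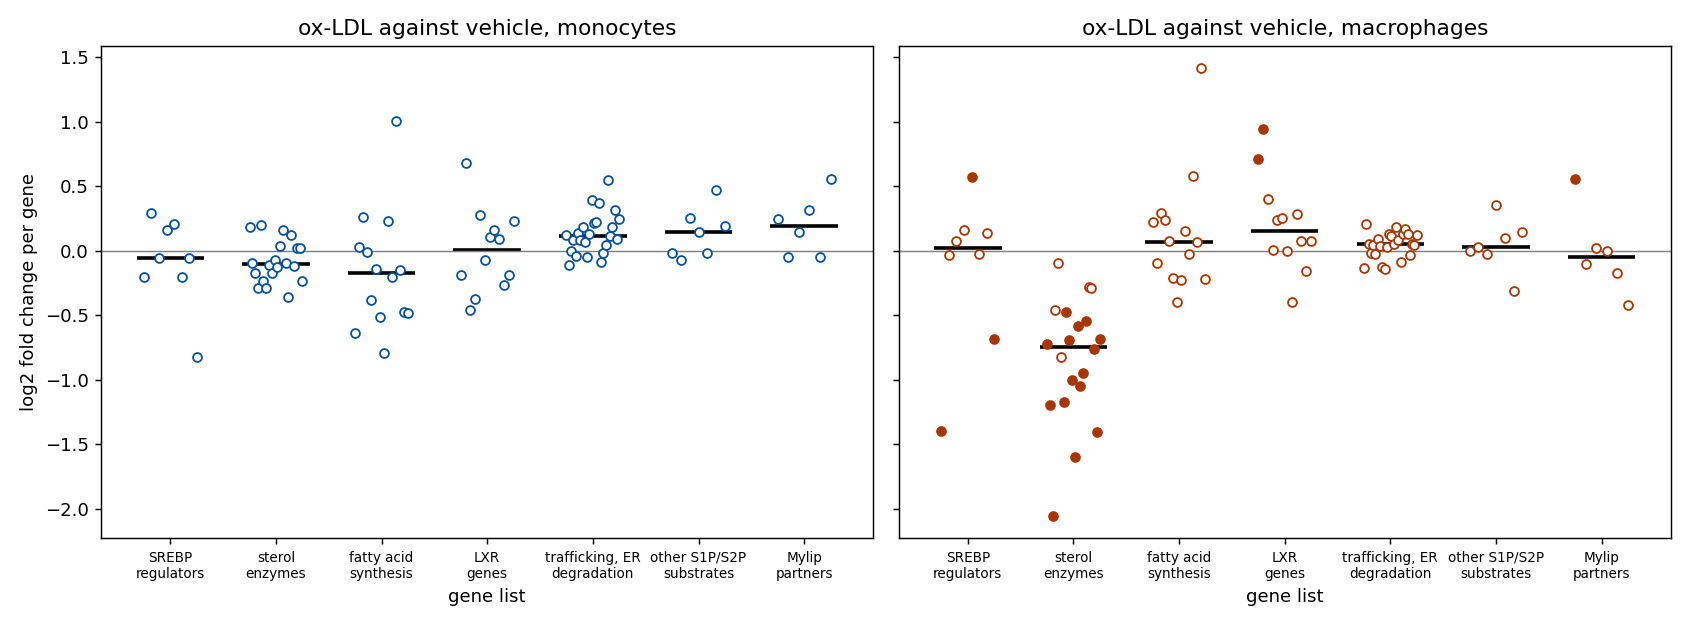
Log2 fold change with ox-LDL against vehicle for each gene of the 7 lists, in monocytes (left) and macrophages (right); filled points are called (edgeR adjusted p under 0.05), and the black lines are list medians. In macrophages 15 of 20 sterol enzymes are called lower, beside 1.38% of all genes tested, around a median of -0.74.

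The genes whose profile was most like that of each member were found by the root mean square difference of log2 CPM over the 22 libraries, each gene centred on its own mean, among the 9193 genes whose mean reached 5 CPM. Nearest to Insig1 were Ifit2 (0.301), the interferon-induced gene, Stard4 (0.331), a sterol carrier, and Ifi47 (0.385), an interferon-induced GTPase. Nearest to Srebf2 were Runx2 (0.287), Castor2 (0.299) and Ier5 (0.324). The other members had nearer neighbours: Trim8 (0.108), Slc38a1 and Dhx30 for Srebf1, and Dhx30 (0.116), the COPII coat gene Sec31a and Nfrkb for Mbtps1. For Insig2 they were Lmbrd1 (0.125), Btbd1 and Ostm1, and for Scap Ripor1 (0.144), Ttll12 and Lrsam1. Mbtps2 had Lamp2 (0.171), Sdcbp and Sh3bgrl, and Mylip had Ppp5c (0.226), Polr3e and Ly9. Among the members themselves Srebf1 and Mbtps1 were the closest pair (0.151). All 22 libraries of both cell types enter this measure. It is not scaled by how much each gene varies, so genes that change little lie near each other whatever their pattern.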

How the data were processed

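Per the submitters' processing notes, reads were aligned with STAR 2.7.9a to GRCm38 and counted per gene with featureCounts 2.0.3 (Subread). For strand setting, multi-mapping reads and annotation release, the value is not given in the sources used here. The authors deposited counts (whole reads per gene, not normalized), CPM, FPKM and TPM for each library. The deposited CPM, FPKM and TPM followed from the deposited counts for every gene (tolerance 1e-06; 0 departures). Symbols were matched to 55141 of 55487 IDs. Tests used the deposited counts in edgeR 4.0.16 (R 4.3.3): TMM, filterByExpr, quasi-likelihood F test, Benjamini-Hochberg adjustment over all genes tested, only the groups compared in each fit, and no covariate. The code was tested on simulated data. Alternatives were DESeq2 1.42.0, limma 3.58.1 (voom), total counts, no filter, 1 fit over all 4 groups, leaving out the 4 neutrophil-high monocyte libraries, and leaving out each library. The members, lists and alternatives were chosen with earlier results of these data known. From each list the rule named up to 3 called genes of lowest adjusted p, or the most abundant gene where none was called, and for each member the 3 most alike genes with at least 5 CPM (0.5 CPM added before log2). A few genes picked by this rule are left unreported.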

Additional observations from a re-analysis of the deposited data

Results flagged for a closer look

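The ox-LDL effect on Insig1 differed between the cell types by a test of the difference itself, -1.16 on the log2 scale (macrophages minus monocytes; edgeR adjusted p = 0.019). Among the 32 sets of libraries checked (8 genes in 4 groups), 2 held a library far from the others, and chance alone gives about 1 in 20. Scap stood at 32.3 CPM in monocyte vehicle replicate 5, where the next value was 47.5, and that library had the highest neutrophil marker sum of all (46106 CPM). Replicate 5 was also the lowest vehicle monocyte library for Srebf1 (59.9 CPM), Insig1 (31.2), Insig2 (13.4), Mbtps1 (45.3) and Mylip (56.2). For Srebf2 and Mbtps2 it was not the lowest. Insig2 stood at 24.3 CPM in monocyte ox-LDL replicate 9, where the next value was 18.5, and that library also had the lowest Srebf2 level among monocytes (180.2 CPM).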

How the results depend on the processing

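Members called stayed within 1.5 times of the count given in all fits of 3 comparisons: ox-LDL in macrophages (2 or 3) and macrophages against monocytes with vehicle (6 or 7) and with ox-LDL (7 or 8). In monocytes 1 member was called with DESeq2 and 1 in the fit over all 4 groups, against 0. For the difference of effects, leaving out libraries gave 0 to 1. Over all genes, the count for ox-LDL in monocytes, 4, was 132 with DESeq2, 7 with limma voom, 9 with no filter, 259 in the fit over all 4 groups, 0 without the neutrophil-high libraries, and 0 to 8 leaving out libraries. In macrophages the count of 342 was 683 with DESeq2, 80 in the fit over all 4 groups, and 150 to 348 leaving out libraries. For the difference, 11 became 59 with DESeq2, 5 with total counts, 129 without the neutrophil-high libraries, and 1 to 44 leaving out libraries. Signs changed for members near 0 that were not called. Mbtps2 in the difference of effects was -0.001 with limma voom and -0.011 with no filter, and -0.099 to 0.124 leaving out libraries. Leaving out libraries, Mbtps1 in monocytes ran from -0.159 to 0.017, and in macrophages Scap ran from -0.104 to 0.063 and Insig2 from -0.083 to 0.001. The cause of these changes was not tested. Total counts shifted the median of all genes by at most 0.096 downwards. No paired analysis was possible because no replicate name occurs in more than 1 group. Depth left every member with at least 111 counts per library, and no interval here covers more than the spread between libraries.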

Other observations

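The pathway lists also differed between the cell types with vehicle, where 28.5% of all genes tested were called higher in macrophages and 35.1% lower. Of the 20 sterol enzymes, 17 were lower and 2 higher in macrophages than in monocytes with vehicle (edgeR; median log2 difference -1.17, all genes -0.089), among them Idi1 (-2.94 ± 0.13) and Fdft1 (-2.35 ± 0.10), which makes squalene. Of the 12 LXR genes, 8 were higher and 1 lower, with Abca1 at 2.87 ± 0.30 and Smpdl3a, a phosphodiesterase, at 1.56 ± 0.11. Other substrates of the site-1 and site-2 proteases were higher in 5 of 7 and lower in 0, among them Atf6 (1.30 ± 0.13), a sensor of ER stress, Gnptab (1.55 ± 0.19), which tags lysosomal enzymes, and Creb3l2 (1.64 ± 0.21). Lrp8 was lower in macrophages, at 15.8 ± 1.23 against 141 ± 30.7 CPM (-3.18 ± 0.16). Fatty acid synthesis enzymes went both ways, with Fads1 at 1.68 ± 0.15, Fads2 at -3.25 ± 0.28 and Scd1 at -5.10 ± 0.55 among 2 higher and 5 lower of 14, the latter near the share over all genes. Markers of neutrophils, dendritic cells and erythroid cells differ between the same libraries, and their part in these differences was not tested.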
